A study of Mus musculus with 5 samples.

Results

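The genes described here encode the enzymes of fatty acid beta-oxidation and ketone synthesis, together with the fasting signals Pdk4, Angptl4 and Fgf21, in liver of Mdr2+/- and Mdr2+/+ mouse pups. They were chosen by gene symbol, and each of the 36 symbols matched exactly 1 of the 36401 Ensembl genes in the deposited tables. All 36 passed the filter on low counts. The tested group was 3 libraries from Mdr2+/- pups, which lack an allele of Mdr2, and it was set against 2 libraries from Mdr2+/+ littermates. Mdr2 is the older name of Abcb4, the canalicular floppase that moves phosphatidylcholine into bile. All pups were BALB/C, from an Mdr2-/- line backcrossed to that strain, and were sacrificed on day 10 of life, when pups still suckle. RNA came from lobe 1 of the liver. No treatment is named. Whether every library came from its own pup is left unsaid in the labels, and p-values therefore describe only how these libraries vary. The study is on ABCB4 in biliary atresia, and the comparison here asks which steps of fat oxidation differ in transcript level when an Mdr2 allele is missing.

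Beta-oxidation shortens fatty acids by removing acetyl-CoA units in repeated cycles of dehydrogenation, hydration, dehydrogenation and thiolysis. Mitochondria take in most long-chain fatty acids through the carnitine shuttle, whereas peroxisomes handle very long, branched and dicarboxylic chains. In the suckling liver, which lives on milk fat, much of the acetyl-CoA becomes ketone bodies that are exported to other organs. The nuclear receptor PPARα, with its partner RXR, is the main activator of these genes during fasting and suckling.

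Total estimated counts per library ranged from 12991301 to 17312851 in Mdr2+/- livers, against 11944157 and 14644529 in Mdr2+/+ livers. Abcb4 had 100.6, 97.7 and 92.6 CPM (counts scaled to library size by TMM) in Mdr2+/- livers, against 162 CPM in each Mdr2+/+ liver (log2 fold change -0.74, SE 0.06 and adjusted p = 3.36e-04 in edgeR's quasi-likelihood test). The liver label was checked by summed hepatocyte markers, which lay at 231000 to 248000 CPM in Mdr2+/- livers and 220000 to 238000 CPM in Mdr2+/+ livers. Of 19 hepatocyte markers 3 were higher (Cps1, Ass1 and Hpd) and 2 lower (Apoa1 and Apoa2), so single hepatocyte genes also differed by genotype. Blood cell markers moved with genotype. Erythroid markers summed to 1770 to 1970 CPM in Mdr2+/- livers against 2960 to 3690 CPM in Mdr2+/+ livers (0 of 14 higher, 11 lower). Neutrophil and granulocyte progenitor markers summed to 393 to 501 CPM in Mdr2+/- livers against 132 to 186 CPM in Mdr2+/+ livers (13 of 15 higher, 0 lower), and B cell markers to 58.1 to 68.8 CPM against 21.7 to 30.8 CPM (10 of 14 higher, 0 lower). Kupffer cell markers overlapped, at 886 to 987 CPM in Mdr2+/- livers and 786 to 1030 CPM in Mdr2+/+ livers (1 of 13 higher, 4 lower). Adipocyte markers summed to at most 40.9 CPM and muscle markers to at most 11.3 CPM in any library, and Adipoq, Lep, Retn and Ucp1, like Mb, Myh1, Myh2 and Myh4, had 0 counts in all libraries. The part of the blood cell shifts in the results that follow was not tested, and in whole liver fewer cells of a type and less RNA per cell cannot be told apart.

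Of the 36 genes, 10 differed between the genotypes: 3 were higher and 7 lower in Mdr2+/- livers. Across all 13959 tested genes, 12% passed the threshold (adjusted p under 0.05), 6.63% as higher and 5.41% as lower. Among the 8739 genes at least as abundant as the lowest member (8.19 CPM), 16.3% passed, 8.91% as higher and 7.37% as lower. The share of members called was 27.8%, with 8.33% higher and 19.4% lower. DESeq2 called 8 of the 36 and limma called 10. The values of the genotypes did not overlap for 18 of the 36 members, a share close to the 45.5% of all tested genes. Of these, 4 lay above and 14 below the Mdr2+/+ values, where 22.9% of all tested genes lay above and 22.7% below. Differences were small: log2 fold changes of the members ran from -0.88 to 0.52 with a median of -0.11 (14 positive, 22 negative), where the median of all tested genes was 0.00.

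**Figure D1:**
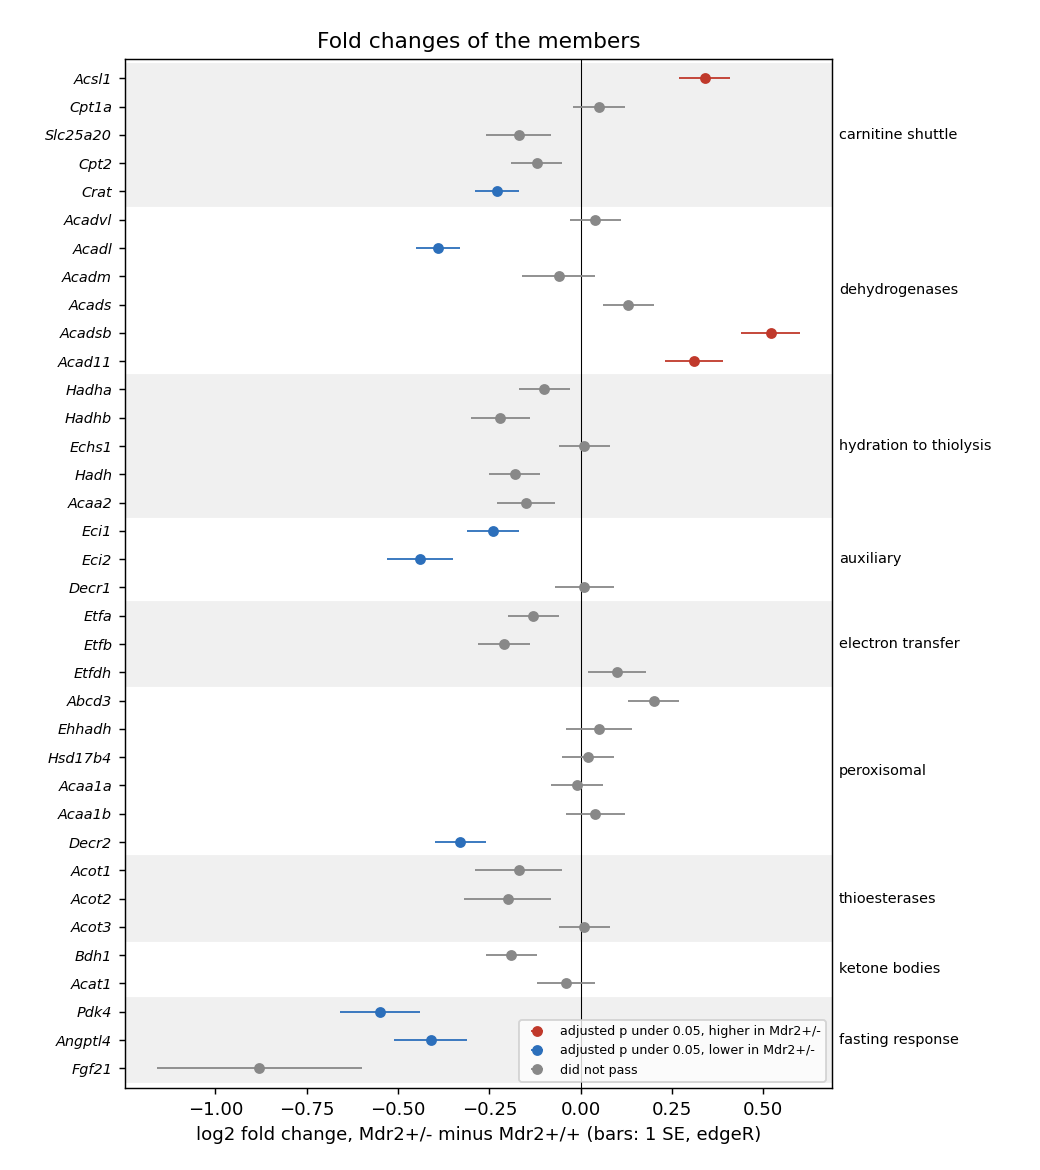
Log2 fold change of each member, Mdr2+/- minus Mdr2+/+ (x axis; bars are 1 SE), grouped down the page by step of the pathway; colour marks members past the threshold. The 3 higher members (Acsl1, Acadsb, Acad11) lie between 0.31 and 0.52, and the 7 lower ones between -0.55 and -0.23; Fgf21 has the lowest value, -0.88, and the widest error bar.

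The Mdr2+/+ libraries differed from each other in a shared direction across the pathway. Of the 36 members, 34 had a higher level in Mdr2+/+ replicate 2 than in replicate 1 (94.4%), against 50.3% of all tested genes. The median difference on the log2 scale was 0.18 for the members and 0.00 for all tested genes. Such a difference was not confined to the members. From replicate 1 to replicate 2, summed TCA cycle genes went from 2882 to 3088 CPM and hepatocyte markers from 220300 to 238200 CPM. Erythroid markers went the other way, from 3685 to 2962 CPM, as did Kupffer cell markers, from 1027 to 785.8 CPM. The cause was not tested. Mdr2+/+ replicate 2 held the highest value of all 5 libraries for 27 members (75% against 23.4% of all tested genes), and Mdr2+/+ replicate 1 the lowest for 15. The 3 Mdr2+/- libraries lay closer together, with a median range of 0.12 over the members, against 0.20 over all tested genes. For 18 members the gap between the Mdr2+/+ libraries was wider than the fold change between genotypes (50%), against 42.4% of all tested genes. Without Mdr2+/+ replicate 2 only 4 members passed (3 higher and 1 lower) and their median fold change was -0.014. Without Mdr2+/+ replicate 1, 7 passed (1 higher and 6 lower), with a median of -0.20.

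**Figure D2:**
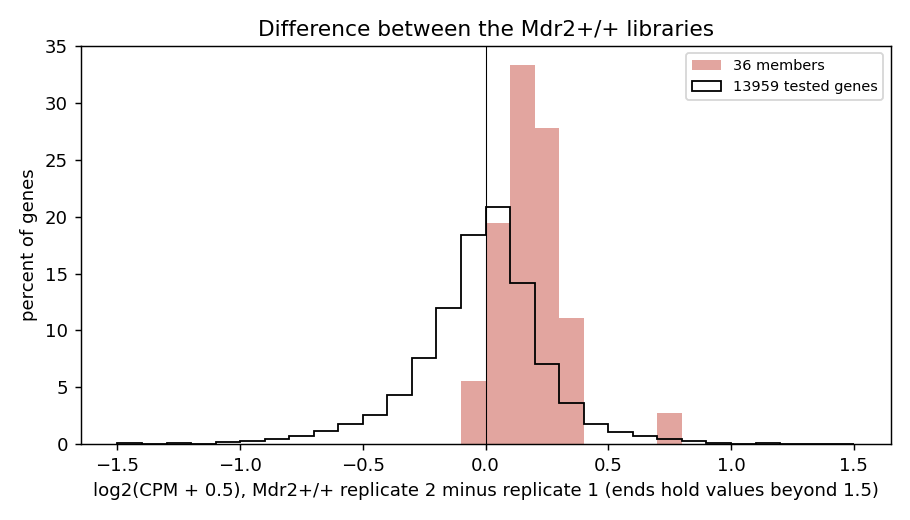
Distribution of the difference in log2(CPM + 0.5) between Mdr2+/+ replicate 2 and replicate 1 (x axis) as percent of genes (y axis), for the 36 members (filled) and all 13959 tested genes (line). The members lie to the right, with 34 of 36 above 0, while the tested genes centre on 0.

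**Figure D3:**
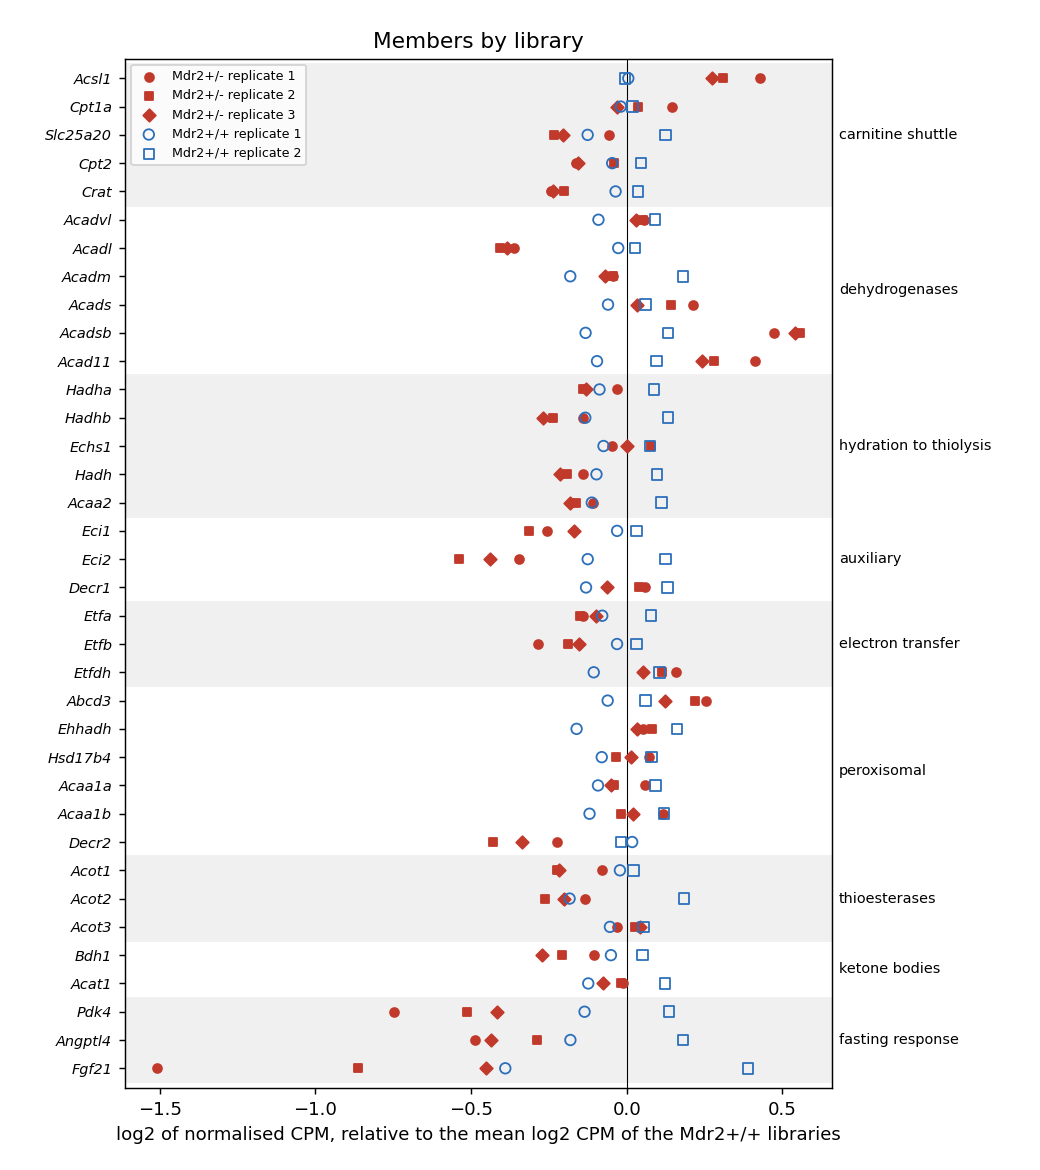
Level of each member in every library, as log2 CPM relative to the mean of the Mdr2+/+ libraries (x axis); filled symbols are Mdr2+/- and open symbols Mdr2+/+ replicates. The open squares of Mdr2+/+ replicate 2 lie right of the open circles for 34 of 36 members, and the filled symbols of Acsl1, Acadsb and Acad11 lie right of both while those of Acadl, Eci2 and Pdk4 lie left of both.

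At the entry to the pathway, 1 of 5 members was higher, 1 was lower and 3 did not pass, among them the genes of mitochondrial import. Acsl1 is the main long-chain acyl-CoA synthetase of liver, which traps fatty acids as CoA esters. The gene (ENSMUSG00000018796) lies on chromosome 8. It had 1142, 1052 and 1028 CPM in Mdr2+/- livers, against 852 and 846 CPM in Mdr2+/+ livers. All 3 Mdr2+/- libraries were above both Mdr2+/+ libraries, a 1.26-fold difference (log2 fold change 0.34, SE 0.07, adjusted p = 0.0133). This call was lost without Mdr2+/+ replicate 1 (adjusted p = 0.0536), with the fold change still 0.34. Cpt1a, the malonyl-CoA-sensitive carnitine palmitoyltransferase that sets the rate of import, had 699, 648 and 619 CPM against 624 and 640.4 CPM. The groups overlapped, and the log2 fold change of 0.05 (SE 0.07, adjusted p = 0.678) did not pass. Slc25a20, the carnitine-acylcarnitine carrier of the inner membrane, had 125, 111 and 113 CPM in Mdr2+/- livers and 119.5 and 142 CPM in Mdr2+/+ livers (log2 fold change -0.17, adjusted p = 0.242). Cpt2, which returns the acyl group to CoA inside, did not pass either (154 ± 7.50 against 167 ± 7.62 CPM, SD, n = 3 and 2; adjusted p = 0.289). Crat, the carnitine acetyltransferase that buffers acetyl-CoA, was lower, at 54.9, 56.6 and 55.2 CPM against 63.4 and 66.6 CPM (log2 fold change -0.23, SE 0.06, adjusted p = 0.0433). Its groups were apart, but the call was held in 5 of 13 alternative fits and was lost with any library left out (adjusted p = 0.0818 to 0.166).

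The acyl-CoA dehydrogenases, which open each cycle and differ in the chain they accept, split in both directions. Acadl (ENSMUSG00000026003, chr1:66830839-66863277, mm10 in GENCODE M21), the long-chain enzyme, had 433, 419 and 426 CPM in Mdr2+/- livers, against 546 and 567 CPM in Mdr2+/+ livers. Its Mdr2+/- libraries fell within a narrow band below both Mdr2+/+ libraries (0.766 of the Mdr2+/+ level, log2 fold change -0.39, SE 0.06, adjusted p = 0.00429). Acadsb (ENSMUSG00000030861, chr7:131410601-131448944), the short and branched chain enzyme known for isoleucine breakdown, had 123, 131 and 129 CPM in Mdr2+/- livers, against 81.0 and 97.3 CPM in Mdr2+/+ livers. That is a 1.43-fold difference with no overlap (log2 fold change 0.52, SE 0.08, adjusted p = 0.00473), the largest rise among the members. Acadl and Acadsb were called in 13 of 13 alternative fits, and no other member was.

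Acad11, a dehydrogenase family member found in peroxisomes as well as mitochondria, had 315, 287.5 and 280.0 CPM in Mdr2+/- livers against 221.5 and 253 CPM in Mdr2+/+ livers (log2 fold change 0.31, SE 0.08, adjusted p = 0.0363). The groups did not overlap, yet the call was lost in 5 of 13 alternative fits, among them the one without Mdr2+/+ replicate 1 (adjusted p = 0.206) and each one without an Mdr2+/- library (0.0524 to 0.0804). Acadvl, the very-long-chain enzyme of the inner membrane, had 477, 476 and 469 CPM in Mdr2+/- livers and 431 and 489 CPM in Mdr2+/+ livers. Its exons share 1151 of 2686 bases with Dvl2 on the opposite strand, so part of its reads is uncertain if counting did not use strand. Acadm, the medium-chain enzyme, had 359.7, 359.8 and 353 CPM against 327 and 421 CPM. For both genes the Mdr2+/- values fell between the Mdr2+/+ values (log2 fold change 0.04 for Acadvl and -0.06 for Acadm). Acads, the short-chain enzyme, did not pass (0.13, SE 0.07, adjusted p = 0.290).

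None of the 5 genes for hydration, the NAD-linked oxidation and thiolysis inside mitochondria passed in edgeR, DESeq2 or limma, although 2 had an unadjusted p under 0.05. Hadha and Hadhb encode the alpha and beta subunits of the trifunctional protein, which carries out these steps on long chains. Hadha had 505, 468 and 471 CPM in Mdr2+/- livers and 486 and 548 CPM in Mdr2+/+ livers. Hadhb had 392.5, 367 and 359 CPM in Mdr2+/- livers, against 394.5 and 474 CPM in Mdr2+/+ livers. All 3 Mdr2+/- values of Hadhb were below both Mdr2+/+ values, the nearest by little, and its log2 fold change of -0.22 (SE 0.08, adjusted p = 0.125) passed only without Mdr2+/+ replicate 1 (-0.35, adjusted p = 0.0435). The subunit genes stand head to head on chromosome 5, and their RefSeq starts are 273 bases apart, so the promoter windows overlap. The Hadhb window is shown because most of it belongs to both windows; capitals mark the 228 bases it shares with the Hadha window (GRCm38.p6, chr5:30155003-30155302, plus strand).
Hadhb: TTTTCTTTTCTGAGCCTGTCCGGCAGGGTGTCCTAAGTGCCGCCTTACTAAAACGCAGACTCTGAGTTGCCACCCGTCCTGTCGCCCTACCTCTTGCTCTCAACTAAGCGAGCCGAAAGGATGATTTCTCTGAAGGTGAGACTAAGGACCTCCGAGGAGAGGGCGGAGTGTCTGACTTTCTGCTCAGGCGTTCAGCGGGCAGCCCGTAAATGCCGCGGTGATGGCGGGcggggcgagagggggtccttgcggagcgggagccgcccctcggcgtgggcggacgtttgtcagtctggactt
Hadha itself did not pass (log2 fold change -0.10, SE 0.07, adjusted p = 0.396).

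Hadh, the short-chain hydroxyacyl-CoA dehydrogenase, had 826, 797 and 783.5 CPM in Mdr2+/- livers, against 851 and 973 CPM in Mdr2+/+ livers (log2 fold change -0.18, SE 0.07, adjusted p = 0.129). Its groups did not overlap, and with library size alone it passed (adjusted p = 0.0476). Acaa2, the mitochondrial thiolase, had 1277, 1230 and 1214 CPM against 1273 and 1487 CPM. The highest Mdr2+/- library was level with Mdr2+/+ replicate 1 (log2 fold change -0.15, adjusted p = 0.219). Echs1, the short-chain hydratase, averaged 219 ± 9.65 CPM in Mdr2+/- livers and 217 ± 15.8 CPM in Mdr2+/+ livers (SD, n = 3 and 2).

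The auxiliary enzymes reposition double bonds and so let unsaturated fatty acids enter the cycle; 2 of 3 were lower, both of them isomerases. Eci2, an enoyl-CoA isomerase found in mitochondria and peroxisomes, had 124.5, 109 and 117 CPM in Mdr2+/- livers, against 145 and 172.5 CPM in Mdr2+/+ livers. Every Mdr2+/- library was below both Mdr2+/+ libraries, at 0.735 of their level (log2 fold change -0.44, SE 0.09, adjusted p = 0.0127). This held in 12 of 13 alternative fits and was lost without Mdr2+/+ replicate 2 (-0.31, adjusted p = 0.0769). Eci1, the mitochondrial isomerase, had 116, 111 and 123 CPM in Mdr2+/- livers, against 135 and 141 CPM in Mdr2+/+ livers (log2 fold change -0.24, SE 0.07, adjusted p = 0.0414). Its transcript is short (1137 bases), and with an offset for transcript length the fold change was -0.12 (adjusted p = 0.307). Eci1 was called in 5 of 13 alternative fits, and neither DESeq2 nor the replicate block called it. Leaving out any library also ended the call of Eci1 (adjusted p = 0.0509 to 0.159). The mitochondrial dienoyl-CoA reductase Decr1 did not pass, with 258, 255 and 237.5 CPM against 227 and 272 CPM (log2 fold change 0.01, adjusted p = 0.971).

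Electrons from the acyl-CoA dehydrogenases pass through the flavoprotein ETF and its dehydrogenase to ubiquinone. Of these 3 genes 0 passed in edgeR, DESeq2 or limma, and 1 had an unadjusted p under 0.05. Etfb, the beta subunit, had 305.5, 327 and 335 CPM in Mdr2+/- livers, against 365 and 381 CPM in Mdr2+/+ livers. The groups did not overlap (log2 fold change -0.21, SE 0.07, adjusted p = 0.0715), and scaling by library size alone made it a call (-0.24, adjusted p = 0.0386). Etfb has the shortest transcript of the members, 893 bases, and the length offset reduced its fold change to -0.05. Etfa averaged 439 ± 8.27 CPM against 481.5 ± 37.0 CPM, and Etfdh 379 ± 13.9 CPM against 352 ± 36.5 CPM (SD, n = 3 and 2 for each gene). The fold changes of Etfa and Etfdh, -0.13 and 0.10, had SEs of 0.07 and 0.08.

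In peroxisomes, 1 of 6 members passed. Decr2, the peroxisomal dienoyl-CoA reductase, had 119, 103.5 and 110.3 CPM in Mdr2+/- livers, against 141 and 138 CPM in Mdr2+/+ livers. The groups were apart (0.796 of the Mdr2+/+ level, log2 fold change -0.33, SE 0.07, adjusted p = 0.0183). Its fold change was -0.38 to -0.28 over the 13 alternatives, and the call was lost without either Mdr2+/+ library or without Mdr2+/- replicate 2 or 3 (adjusted p = 0.0549 to 0.0890). Abcd3, the transporter that brings acyl-CoA into the peroxisome, had 373, 364 and 340.4 CPM against 299.6 and 326 CPM, with no overlap and no call (log2 fold change 0.20, SE 0.07, adjusted p = 0.0977). Ehhadh, the bifunctional enzyme induced by PPARα ligands in rodents, had 394, 403 and 389 CPM in Mdr2+/- livers, between the 340.4 and 425.5 CPM of the Mdr2+/+ livers. Hsd17b4, the other bifunctional enzyme, used for branched chains and bile acid intermediates, averaged 276 ± 10.3 CPM against 273 ± 21.4 CPM (SD, n = 3 and 2).

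The peroxisomal thiolases Acaa1a and Acaa1b did not pass, and their groups overlapped. Acaa1a had 460.1, 429 and 426 CPM against 414 and 471 CPM. Acaa1b had 828.5, 756 and 776 CPM in Mdr2+/- livers and 704 and 831 CPM in Mdr2+/+ livers. Their log2 fold changes were -0.01 and 0.04 (SE 0.07 and 0.08). The coding sequences are 96.5% identical, and 34% of the 50-base windows of the Acaa1a transcript recur exactly in Acaa1b, so reads may be shared and the split between them is uncertain. The 60 coding bases with the most differences (positions 259 to 318 from the start codon in each, 11 differences in capitals, GENCODE M21 transcripts, both on chromosome 9) show where reads can tell them apart.
Acaa1a: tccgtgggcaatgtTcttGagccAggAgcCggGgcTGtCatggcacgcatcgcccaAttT
Acaa1b: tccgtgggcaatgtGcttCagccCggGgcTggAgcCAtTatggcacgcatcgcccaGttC
Both sequences are those of the reference strain, not of BALB/C.

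Of the 3 thioesterases, which release free fatty acids from CoA, 0 passed in edgeR, DESeq2 or limma, and 0 had an unadjusted p under 0.05. Acot1 is cytosolic, Acot2 mitochondrial and Acot3 peroxisomal, and the genes lie within 72542 bases on chromosome 12. Acot1 was the least abundant member, with 8.32, 7.53 and 7.56 CPM in Mdr2+/- livers, against 8.65 and 8.92 CPM in Mdr2+/+ livers. All 3 Mdr2+/- values were below both Mdr2+/+ values (log2 fold change -0.17, SE 0.12, adjusted p = 0.388). Acot2 had 15.8, 14.5 and 15.1 CPM in Mdr2+/- livers and 15.3 and 19.7 CPM in Mdr2+/+ livers (log2 fold change -0.20, SE 0.12, adjusted p = 0.302), with overlap. Coding sequences of Acot1 and Acot2 are 95.5% identical, and 23.7% of the 50-base windows of the Acot1 transcript recur in Acot2, so reads may be shared and the split between them is uncertain. Acot3, more distant at 84% identity to Acot1, was the most abundant of the 3 and averaged 56.6 ± 1.53 CPM against 56.1 ± 2.96 CPM (SD, n = 3 and 2; log2 fold change 0.01, SE 0.07). The median log2 fold change of the 3 was -0.17.

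Ketone synthesis joins acetyl-CoA units and ends with the reduction of acetoacetate. Acat1, the mitochondrial acetoacetyl-CoA thiolase, had 1476, 1470 and 1411 CPM in Mdr2+/- livers, between the 1366 and 1621 CPM of the Mdr2+/+ livers (log2 fold change -0.04, SE 0.08, adjusted p = 0.785). Bdh1, the 3-hydroxybutyrate dehydrogenase, had 897, 835 and 799.5 CPM in Mdr2+/- livers, against 931 and 999 CPM in Mdr2+/+ livers. All Mdr2+/- values of Bdh1 were below both Mdr2+/+ values (log2 fold change -0.19, SE 0.07, adjusted p = 0.108), and scaling by library size alone turned this into a call (-0.23, adjusted p = 0.0416). No member of this step passed in edgeR, DESeq2 or limma, and 1 of 2 had an unadjusted p under 0.05. Among genes of other ketone body steps outside the member list, Slc16a1, a monocarboxylate transporter that carries ketone bodies, was lower (252.7, 257 and 274 CPM in Mdr2+/- livers against 304 and 314 CPM in Mdr2+/+ livers, log2 fold change -0.24, adjusted p = 0.0395), and leaving out any library ended its call (0.0548 to 0.143). Bdh2, a cytosolic 3-hydroxybutyrate dehydrogenase, had 0.549, 1.09 and 0.872 CPM in Mdr2+/- livers, against 0.396 and 0.421 CPM in Mdr2+/+ livers, close to the floor of 3 counts (0.173 to 0.251 CPM), and did not pass (1.06, SE 0.42, adjusted p = 0.137).

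All 3 fasting signals were below the Mdr2+/+ libraries in every Mdr2+/- library, as were 22.7% of all tested genes. Of the 3, 2 passed the threshold. Pdk4 (ENSMUSG00000019577, chr6:5483351-5496309), the kinase that shuts off pyruvate dehydrogenase and so spares glucose when fat is burned, had 28.6, 33.6 and 35.9 CPM in Mdr2+/- livers, against 43.7 and 52.7 CPM in Mdr2+/+ livers. It fell to 0.683 of the Mdr2+/+ level (log2 fold change -0.55, SE 0.11, adjusted p = 0.0129). The call was lost only without Mdr2+/+ replicate 2 (-0.41, adjusted p = 0.0831). Angptl4, a secreted inhibitor of lipoprotein lipase, had 59.5, 68.3 and 61.8 CPM in Mdr2+/- livers, against 73.6 and 94.6 CPM in Mdr2+/+ livers (log2 fold change -0.41, SE 0.10, adjusted p = 0.0340). Its value depended on the highest library: without Mdr2+/+ replicate 2 the fold change was -0.22 (adjusted p = 0.192), and without Mdr2+/- replicate 1 or 3 the call was also lost (0.0856 and 0.0901).

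Fgf21, the liver hormone of fasting and ketosis, had 6.20, 9.71 and 12.9 CPM in Mdr2+/- livers, against 13.5 and 23.1 CPM in Mdr2+/+ livers. The smallest of these values rests on 79 counts and the largest on 275. Fgf21 varied widely within each genotype, and its fold change, the lowest of the members, did not pass (-0.88, SE 0.28, adjusted p = 0.0674). Over the alternatives it ran from -1.24 to -0.46, and 4 of 13 fits called it.

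**Figure D4:**
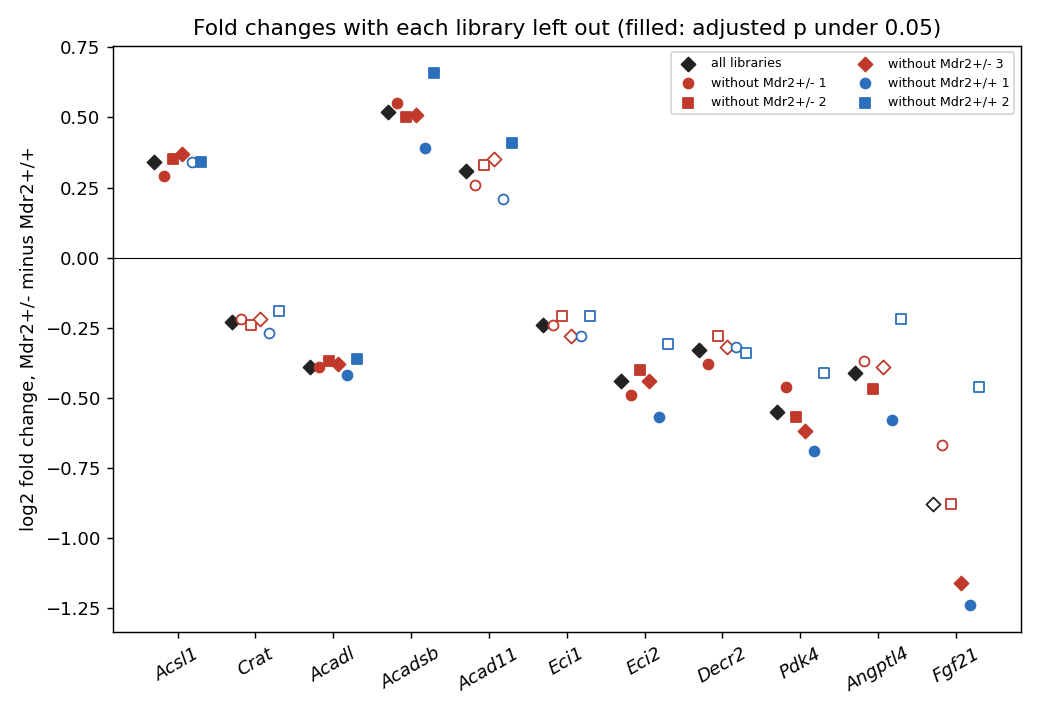
Log2 fold change, Mdr2+/- minus Mdr2+/+ (y axis), of the 10 members past the threshold and Fgf21, with all libraries and with each library left out; filled symbols have an adjusted p under 0.05. Acadl and Acadsb stay filled throughout, whereas Crat and Eci1 are open whenever a library is left out, and Fgf21 ranges from -1.24 to -0.46.

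Promoters of the members were searched on both strands for the direct repeat that PPARα with RXR binds, a pair of AGGTCA units with 1 free base between them and up to 2 mismatches, in RefSeq windows from 250 bases before to 50 after each start. Of 36 members, 30 had a window, with 34 windows in all. A match was present in 3 of these windows (8.82%), against 3.86% of all 32851 promoter windows. The matches were AGGTGAAAGGTCG in Slc25a20, AGGTCACGGGTCC in Echs1 and TTACCTTTGCCCT (opposite strand) in Etfa, none of them a gene that passed. The single repeat unit AGGTCA, which the longer motif contains, was present in 6 windows (17.6%, against 16.3% of all). The 5 windows of lower members and the 4 of higher members held neither. Crat and Angptl4, which were lower, had no window and were not searched. With so few windows and the shares over all promoters given above, finding none does not set these members apart. The Slc25a20 window is shown because its match starts 6 bases past the transcript start (capitals; GRCm38.p6, chr9:108661886-108662185, plus strand).
Slc25a20: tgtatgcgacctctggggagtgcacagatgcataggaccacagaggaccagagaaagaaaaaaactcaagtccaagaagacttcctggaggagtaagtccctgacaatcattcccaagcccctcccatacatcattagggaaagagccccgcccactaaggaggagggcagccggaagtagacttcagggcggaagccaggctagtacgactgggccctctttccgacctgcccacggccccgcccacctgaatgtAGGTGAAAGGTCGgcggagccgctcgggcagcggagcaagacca
The Pdk4 window is shown for the member with the largest passing fall; it holds no match (GRCm38.p6, chr6:5496229-5496528, minus strand).
Pdk4: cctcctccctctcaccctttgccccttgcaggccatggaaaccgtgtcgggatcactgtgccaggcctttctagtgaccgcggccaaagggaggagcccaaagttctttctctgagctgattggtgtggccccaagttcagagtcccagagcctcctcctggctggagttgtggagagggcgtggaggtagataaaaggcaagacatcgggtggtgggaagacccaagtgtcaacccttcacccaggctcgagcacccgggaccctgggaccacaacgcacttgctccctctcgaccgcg
These windows do not cover distant enhancers or introns.

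Levels per length (counts per kilobase of the longest transcript, scaled as in TPM) order the members by abundance. In Mdr2+/- livers Acaa2 reached 1707, Acaa1b 971, Acat1 889 and Etfb 753, and in Mdr2+/+ livers 1874, 935, 903 and 860. At the low end, Acot1 stood at 6.23 in Mdr2+/- livers and 6.93 in Mdr2+/+ livers, and Acot2 at 14.3 and 16.4. Cpt1a, at 316.5 in Mdr2+/- livers and 302 in Mdr2+/+ livers, ranked 12 of 36 in Mdr2+/+ livers, next to Acsl1 at 394.5 in Mdr2+/- livers and 308 in Mdr2+/+ livers. These levels depend on the length used: with the union of exons in Mdr2+/+ livers, Hadha stood at 150.2 and not 265.0, and Acat1 (1007) stood above Acaa1b (992).

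Summed CPM of all 36 members was 13940, 13430 and 13200 in Mdr2+/- livers, within the 13130 to 14800 of the Mdr2+/+ livers. By step, the sum of the carnitine shuttle with Acsl1 was above both Mdr2+/+ libraries (1960 to 2170 against 1820 to 1870 CPM). Without Acsl1 the other 4 genes of that step summed to 1029, 978.1 and 937 CPM in Mdr2+/- livers, against 968.6 and 1022 CPM in Mdr2+/+ livers, and the groups overlapped; the median log2 fold change of all 5 was -0.12. The sums of the auxiliary enzymes (475 to 498 against 507 to 585 CPM) and of the fasting signals (94.3 to 112 against 131 to 170.4 CPM) were below. Peroxisomal sums overlapped (2320 to 2460 against 2160 to 2480 CPM), as did those of the dehydrogenases (1840 to 1920 against 1780 to 2020 CPM). Overlap was narrow for hydration to thiolysis (3044 to 3211 against 3210 to 3711 CPM) and electron transfer (1133 to 1148 against 1146 to 1266 CPM). The sums of the thioesterases (79.0 to 80.4 against 77.9 to 86.8 CPM) and ketone body enzymes (2210 to 2373 against 2297 to 2620 CPM) overlapped too.

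Other genes of the pathway, from lists that overlap the members nowhere, were read beside them. Of 25 tested genes of other mitochondrial acyl-CoA metabolism, 5 were higher and 1 lower (median log2 fold change 0.12). Acad10 (77.2 ± 4.24 against 52.8 ± 0.572 CPM, log2 fold change 0.55, adjusted p = 0.00184), its relative Acad12 (0.40, adjusted p = 0.0217) and Ivd, the isovaleryl-CoA dehydrogenase of leucine breakdown (154 ± 10.4 against 106 ± 5.88 CPM, 0.54, adjusted p = 0.00298), were higher, as Acadsb was. Acad12 lost its call without Mdr2+/- replicate 2 or Mdr2+/+ replicate 1 (adjusted p = 0.0565 and 0.146), while Acad10 and Ivd passed in 13 of 13 alternatives. Ech1, a dienoyl-CoA isomerase, was lower (322 ± 11.1 against 406 ± 35.4 CPM, -0.33, adjusted p = 0.0175), and lost its call with the length offset and without Mdr2+/- replicate 3 or Mdr2+/+ replicate 2 (-0.31 to -0.22 in these fits). Of 32 other peroxisomal genes 2 were higher and 1 lower (median 0.06). These were the import factors Pex5 (0.23, adjusted p = 0.0466) and Pex26 (0.39, adjusted p = 0.0338), and Pex11a, a PPARα-induced proliferation factor, which was lower (-0.41, adjusted p = 0.0349). Leaving out any library ended the call of Pex5, any but Mdr2+/- replicate 2 that of Pex26, and any but Mdr2+/+ replicate 1 that of Pex11a (adjusted p up to 0.218, 0.157 and 0.203). Over the 13 alternatives Pex5 passed in 4, Pex26 in 7 and Pex11a in 8. DESeq2 and the replicate block called neither Pex5 nor Pex26. Pex6 did not pass (0.25, adjusted p = 0.0590).

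Genes that control transcription of the pathway were read next. Of 18 tested control genes 4 were higher and 0 lower (median 0.19). Ppara, which encodes PPARα, had 109, 103 and 75.4 CPM in Mdr2+/- livers, against 50.9 and 54.3 CPM in Mdr2+/+ livers, a 1.82-fold difference (log2 fold change 0.86, SE 0.14, adjusted p = 0.00517). It did not pass without Mdr2+/+ replicate 1 (adjusted p = 0.0503). Its partner Rxra was higher (272 ± 5.02 against 202 ± 9.54 CPM, 0.43, adjusted p = 0.00384), as were Rxrb (0.29, adjusted p = 0.0450) and Creb3l3 (0.28, adjusted p = 0.0236). Leaving out any library ended the call of Rxrb, and any but Mdr2+/- replicate 3 that of Creb3l3 (adjusted p up to 0.172 and 0.115). Of 14 tested PPARα targets outside beta-oxidation, 5 were lower and 1 higher (median -0.22); 2 of them, Creb3l3 and Pex11a, also stand in the preceding lists. Fabp1, the liver fatty acid binding protein, had 1719, 1612 and 1700 CPM in Mdr2+/- livers, against 2240 and 2574 CPM in Mdr2+/+ livers (-0.52, SE 0.07, adjusted p = 0.00298). Its transcript is short (553 bases), and with the length offset the fold change was -0.31 (adjusted p = 0.03). Vnn1, the pantetheinase, was lower (34.1 ± 3.24 against 56.1 ± 6.78 CPM, -0.72, adjusted p = 0.00279), and so was the lipid droplet coat Plin2 (-0.26, adjusted p = 0.0261). Plin2 passed in 7 of 13 alternatives. Its call was lost with the length offset, with the replicate block and with any Mdr2+/- library left out. The call was also lost without Mdr2+/+ replicate 2. Its fold change was -0.31 without Mdr2+/+ replicate 1 and -0.21 without Mdr2+/+ replicate 2.

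**Figure D5:**
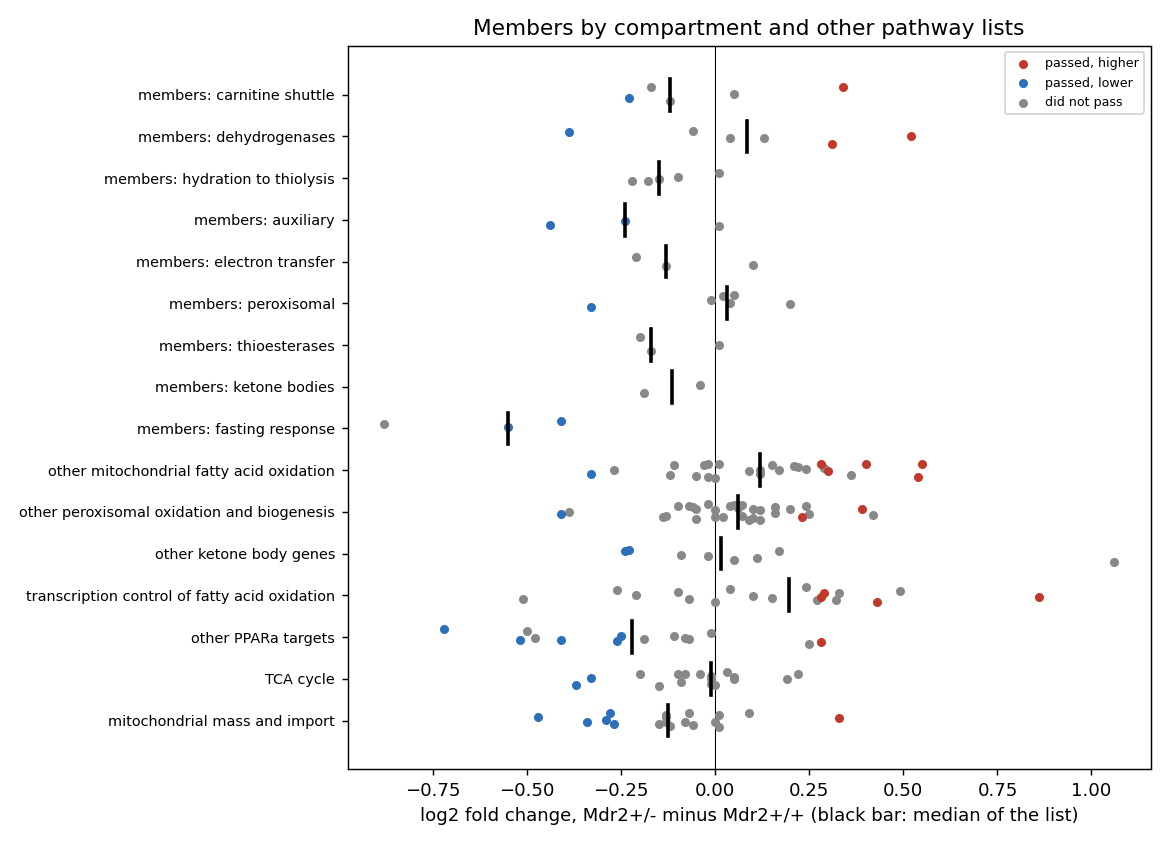
Log2 fold change, Mdr2+/- minus Mdr2+/+ (x axis), of each tested gene by list; points are genes, coloured where adjusted p is under 0.05, and black bars are list medians. The fasting signals have the lowest median (-0.55) among the member groups, while control genes (0.19) and other PPARα targets (-0.22) lie on opposite sides of 0.

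Mitochondrial genes outside fat oxidation were set beside these. Of 17 TCA cycle genes 2 were lower and 0 higher (median -0.01): Mdh2 (193 ± 7.33 against 244 ± 2.12 CPM, log2 fold change -0.33, adjusted p = 0.0102) and Idh3a (-0.37, adjusted p = 0.0210), while Sucla2 (0.22, adjusted p = 0.0546) and Sdha (0.19, adjusted p = 0.0894) did not pass. Of 18 genes for mitochondrial mass and import, 5 were lower and 1 higher (median -0.12). Lower were the adenine nucleotide carriers Slc25a4 (-0.47, adjusted p = 0.00323) and Slc25a5 (-0.28, adjusted p = 0.0185) and the import receptor Tomm22 (-0.34, adjusted p = 0.0169), while Polg, the mitochondrial DNA polymerase, was higher (0.33, adjusted p = 0.0193). Slc25a4 passed in 13 of 13 alternatives. Tomm22 and Slc25a5 each passed in 8 of 13, and lost their calls with the length offset, with the replicate block and without Mdr2+/- replicate 2 or 3 or Mdr2+/+ replicate 2. Polg passed in 9 of 13 and lost its call with the length offset and without Mdr2+/- replicate 2 or either Mdr2+/+ library. Idh3a passed in 10 of 13 and lost its call without Mdr2+/- replicate 1 or 2 or Mdr2+/+ replicate 2. Mdh2 did not pass without Mdr2+/+ replicate 1 (0.0514).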

How the data were processed

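RNA was measured by sequencing in 5 liver libraries, 3 Mdr2+/- and 2 Mdr2+/+, made with the TruSeq RNA kit, per the labels. TopHat and the build mm10 are named in the submitters' processing notes. What tool and annotation gave the counts, and whether strand was used, is not given in the sources used here. The authors deposited estimated counts per gene, unscaled; 33.9 to 37.3% of the values above 0 were whole (tolerance 1e-06). A floor of 3 counts is 0.173 to 0.251 CPM per library, for counting error only.

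Counts were rounded, filtered by filterByExpr (minimum count 10; 13959 of 36401 genes kept), scaled by TMM and tested in edgeR 4.0.16 (R 4.3.3; two-sided quasi-likelihood test, genotype as the only term). P-values were adjusted by Benjamini-Hochberg across the 13959 genes, with 0.05 as the threshold. SE is the fold change over the square root of F. Alternatives (13 per result) included DESeq2 1.42.0 and limma 3.58.1. Lengths came from GENCODE M21 and promoters from RefSeq (GRCm38.p6). Data were also simulated with each gene's mean over all libraries and a spread set by abundance, with 200 genes changed (13794 genes tested). There 52 of 67 genes changed by 0.5 on the log2 scale, 67 of 67 changed by 1 and 66 of 66 changed by 2 were recovered. Of 195 calls, 10 fell on unchanged genes. Genes were drawn independently, without the shared difference between the Mdr2+/+ libraries, so these rates need not hold for the members.

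Members, steps and lists were chosen with earlier results of these data known, so no list was tested; beside Abcb4 and the members, text names up to 4 genes of each other list by smallest p-value. Some genes that this rule names are not reported here. All pairs of libraries differed beyond counting noise (chi-square per degree of freedom 5.30 to 25.8).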

Additional observations from a re-analysis of the deposited data

How the results depend on the processing

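The member count was 10 with RLE scaling, no filter, 10 counts in every library or limma, and 13 with library size alone. It was 9 with the length offset and 8 with DESeq2 or the replicate block. The length offset moved the member median from -0.11 to -0.045. It moved the median of the electron transfer genes from -0.13 to -0.033 and that of the auxiliary enzymes from -0.24 to -0.12. Leaving out each library gave 4 to 7 members called, 1 to 3 higher and 1 to 6 lower, with a member median of -0.20 to -0.014; without Mdr2+/- replicate 1, 2 or 3 the count was 6 each. Over all genes the same gave 697 to 1174 calls, 345 to 670 higher and 352 to 504 lower. The split over all genes was 925 higher and 755 lower, and with library size alone 704 higher and 936 lower; that scaling moved the median of all genes to -0.04. Replicate numbers gave no sign of pairing (correlations of same-numbered deviations 0.03 and 0.029). The deviations of the 2 Mdr2+/+ libraries mirror each other, so these correlations cannot show that the samples were unpaired. The replicate block gave 2 members higher and 6 lower, and 1277 genes in all.

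Signs turned only among members that did not pass, and the cause was not tested. With each library left out in turn, the log2 fold change ran from -0.049 to 0.14 for Acadvl, -0.24 to 0.13 for Acadm, -0.066 to 0.088 for Echs1, -0.12 to 0.14 for Decr1, -0.0022 to 0.22 for Etfdh, -0.11 to 0.22 for Ehhadh. It ran from -0.066 to 0.1 for Hsd17b4, -0.11 to 0.084 for Acaa1a, -0.083 to 0.16 for Acaa1b, -0.044 to 0.07 for Acot3 and -0.16 to 0.09 for Acat1. Each range has its ends at the fits without an Mdr2+/+ library. Library size alone gave -0.025 for Echs1, -0.028 for Decr1, -0.019 for Hsd17b4 and -0.023 for Acot3. The length offset gave -0.013 for Echs1, and the replicate block 0.0088 for Acaa1a and -0.0035 for Acot3. Bdh2 was not tested at 10 counts in every library or without Mdr2+/- replicate 2 or 3, since it did not pass the filter there. The 2 Mdr2+/+ libraries limit precision: their median gap over the members, 0.18, is larger than the size of their median fold change.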
